A study of Mus musculus with 9 samples.

Results

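The genes described here encode the proteins of the cytosolic ribosome. They were taken from the deposited table by name: Rpl or Rps followed by a number, with or without a closing letter or digit, plus Rplp0, Rplp1, Rplp2 and Rpsa. The rule found 83 genes among the 13179 of the table, 50 with large subunit names and 33 with small subunit names. All 83 were among the 13137 genes tested. GENCODE M21 annotated 81 of them as protein coding, and the others, Rpl6l and Rps4l, as processed pseudogenes, which are copies of an mRNA inserted into the genome. The list also held 4 genes for paralogues, which are related proteins that can stand in for the standard one: Rpl3l, Rpl7l1, Rpl22l1 and Rps27l.

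The RNA came from the gastrocnemius, a calf muscle, of mice on a high-fat diet for 6 weeks, and there were 9 libraries in 3 groups of 3. The controls have no further genotype in the labels. The p38alphaMCK-KO mice (p38α KO, the single knockout) lack p38α, a stress-activated kinase encoded by Mapk14. The p38alpha/gammaMCK-KO mice (p38α/γ KO, the double knockout) lack p38α and the related p38γ, encoded by Mapk12. MCK is the usual short name of muscle creatine kinase, whose promoter restricts a deletion to muscle, so other cells in the tissue would keep both kinases. Age, sex and the genotype of the controls beyond that word are not given in the sources used here, and all groups had the same diet. Whether the libraries of a group are separate animals is not stated in the labels. The p-values therefore rest on library-to-library spread, which may be technical.

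A ribosome joins a small subunit, which reads the mRNA, to a large subunit, which forms the peptide bond and carries the exit tunnel for the new chain. Each standard protein is present as a single copy per ribosome, apart from the acidic stalk proteins, so cells make the proteins in matched amounts. In mammals most of these mRNAs start with a C followed by a run of pyrimidines, the 5′ terminal oligopyrimidine tract, through which mTORC1 and the RNA-binding protein Larp1 control their translation. Ribosome number is a main determinant of protein synthesis capacity in muscle, and skeletal muscle is known for a paralogue of its own, Rpl3l.

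The start sites of some members show how the pyrimidine runs around the start vary within the family. The sequences below are RefSeq promoter entries on GRCm38.p6, 15 bases before and 15 after the annotated start, 5′ to 3′ on the gene's strand. Capitals mark the longest run of C and T wherever it lies in the window, so a run need not be the tract at the first base of the mRNA. The runs of Rpl4, Rps27l, Rpl27 and Rpl41 lie wholly before the annotated start, and those of Rps12 and Rpl36a wholly after it. Rpl28, Rpl38, Rps9 and Rplp2 were called higher in the p38α/γ KO and have long runs. Rpl27 and Rpl41, called there too, have short ones at these RefSeq starts. These starts can differ from the GENCODE gene ends given below. The Rpl27 window lies wholly before its GENCODE gene, and those of Rpl28, Rpl38, Rps9, Rps12 and Rpl41 lie inside theirs. The run lengths therefore depend on the start used. Rps12, Rps28 and Rpl36a were called higher in both knockouts. The examples do not sort by their calls. Rpl4 and Rps27l have long runs and were not called in either knockout.
Rpl28 (chr7:4792950-4792979, plus strand): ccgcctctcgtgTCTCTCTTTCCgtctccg
Rpl38 (chr11:114668565-114668594, plus strand): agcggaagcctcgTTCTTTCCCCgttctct
Rps9 (chr7:3704026-3704055, plus strand): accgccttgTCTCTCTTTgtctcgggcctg
Rplp2 (chr7:141447636-141447665, plus strand): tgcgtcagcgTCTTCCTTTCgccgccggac
Rpl27 (chr11:101442230-101442259, plus strand): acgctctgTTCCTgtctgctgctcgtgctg
Rpl41 (chr10:128549154-128549183, minus strand): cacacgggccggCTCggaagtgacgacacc
Rps12 (chr10:23787195-23787224, minus strand): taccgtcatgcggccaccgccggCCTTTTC
Rps28 (chr17:33824548-33824577, minus strand): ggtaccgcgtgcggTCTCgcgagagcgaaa
Rpl36a (chrX:134585639-134585668, plus strand): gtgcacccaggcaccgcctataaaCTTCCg
Rpl4 (chr9:64173372-64173401, plus strand): TTCCTTTTCCTgtgggagcagccgggtaga
Rps27l (chr9:66946071-66946100, plus strand; the table also has a later start for this gene): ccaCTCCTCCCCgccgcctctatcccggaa

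The promoter table held 73 start sites for 61 of the 83 members. A pyrimidine run of at least 7 bases within the 30 bases was present at 46.6% of the members' starts, against 18.5% of all 32817 starts in the table. Among start sites of members called higher in the p38α/γ KO the share was 45.5%, and among the other members' starts 47.1%. The shares of the members that rose and of those that were not called thus lay close together. CCGGAAG, on either strand of the 300 bases from 250 before to 50 after the start, was found at 35.6% of members' starts and 8.86% of all. TATAAA was found at 9.59% of members' starts and 13.6% of all. The motifs were chosen after the sequences had been seen, the runs and motifs can overlap each other, and a match is a string of letters and not a binding site.

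Depth was even. The values behave as a whole number plus 0.5 times a constant of the library, from which depths of 23820968 to 27944409 reads were inferred. The targeted genes went with the labels: Mapk14 fell from 149.5 ± 7.01 in controls to 43.2 ± 2.63 without p38α and 44.8 ± 9.03 without both kinases (SD, n = 3; limma adjusted p = 0.000206 and 0.000137). Mapk12 fell from 143.3 ± 7.74 to 101.5 ± 4.46 and 33.2 ± 2.18 (adjusted p = 0.00601 and 9.84e-07). Two-sided exact permutation tests of 3 against 3 libraries gave p = 0.1 for each of these 4 differences, the smallest they can give. The library p38α KO 1 was unlike the rest of its group. Its correlation across genes was 0.976 and 0.960 with its group, and that of every other same-group pair 0.987 to 0.993. With p38α/γ KO libraries 1, 2 and 3 its correlation was higher than with its own group, at 0.978, 0.983 and 0.980. The 10 markers of fast muscle fibres, which define this muscle, were all measured, with sums of 177814 to 193485 in the controls, 109738 to 159590 in the single and 135087 to 141327 in the double knockout.

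The ribosomal protein genes took a larger share of the summed values in every knockout library than in any control. The share was 1.28%, 1.37% and 1.38% in the controls. It was 2.08%, 1.57% and 1.69% in the single and 1.67%, 1.96% and 1.82% in the double knockout. Part of this share is a matter of the denominator, since the summed values of all genes were lower in the knockouts. Without the mitochondrially encoded genes and the 10 most abundant genes the mean shares were 2.01%, 2.53% and 2.52%. Bulk muscle holds many cell types, so more cells of a type with many ribosomes and more ribosomal protein RNA per cell cannot be told apart.

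Summed by subunit, the small subunit genes lay above all controls in every knockout library, and the large subunit genes in all but p38α KO 2, which was below control 3. The large subunit genes summed to 8566, 8458 and 9001 in the controls, 10520, 8877 and 9694 in the single and 9091, 10398 and 10160 in the double knockout. The small subunit genes summed to 5982, 5997 and 6410, then 8149, 6509 and 7046, then 6653, 7898 and 7599, in the same order. Control 3 was the highest control for 71 of the 83 genes. In the p38α KO library 1 was highest for 68 and library 2 lowest for 71, and in the p38α/γ KO library 2 was highest for 62 and library 1 lowest for 72.

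The ratio of large to small sums was 1.43, 1.41 and 1.40 in the controls. It was 1.29, 1.36 and 1.38 in the single and 1.37, 1.32 and 1.34 in the double knockout, so neither knockout overlapped the controls. Without the 4 paralogues the group means were 1.34 in the controls, 1.28 in the single and 1.28 in the double knockout. Rpl3l alone supplied 448 to 485 of the large subunit sum in the controls. The ratio is given as a description and was not tested.

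**Figure D1:**
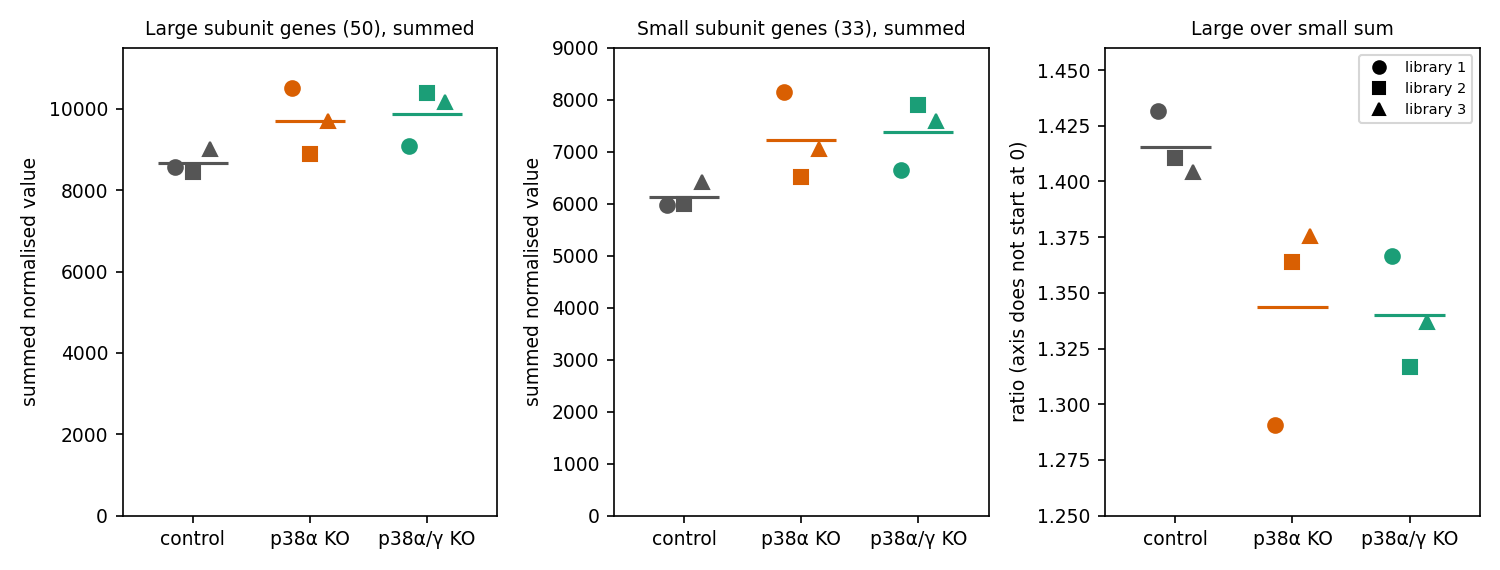
Summed normalised values of the 50 large subunit genes (left) and the 33 small subunit genes (middle), and their ratio (right, axis not starting at 0), for each of the 9 libraries; point shape gives the library number and lines the group means. The ratio lies between 1.40 and 1.43 in the controls and between 1.29 and 1.38 in the 6 knockout libraries.

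Markers of some other cells were also higher in the knockouts. All 14 macrophage markers of the list were in the table, and none was at 0; their sums were 142, 174 and 133 in the controls, 577, 416 and 253 in the single and 430, 559 and 338 in the double knockout. Of the 14, 12 rose in the p38α KO and all rose in the p38α/γ KO. The 8 markers of muscle stem cells and regenerating fibres summed to 22.5, 31.0 and 30.9 in the controls, 247, 83.8 and 46.7 in the single and 59.6, 190 and 77.1 in the double knockout, with 6 and 3 of them called higher. Markers of fibro-adipogenic progenitors, the connective tissue cells of muscle, rose for 1 of 12 (8.33%) and 7 of 12 (58.3%). Over all genes 7.32% and 11.2% were called higher, so the 8.33% lay near the share of all genes. Some other cell types did not go the same way. Of 8 markers of smooth muscle and pericytes none rose. In the single and double knockout 2 and 3 fell, against 10.4% and 14.4% of all genes. Their mean sums were 652, 534 and 532 in the order control, single and double knockout. The 9 endothelial markers had mean sums of 396, 393 and 367. None of the 9 was called in the single knockout, and 1 rose and 2 fell in the double knockout. Of 6 Schwann cell markers none was called. The 6 tenocyte markers had mean sums of 437, 508 and 622. None of them was called in the single and 1 was called higher in the double knockout. Mean sums of adipocyte markers were 497, 436 and 654, and those of erythroid markers 433, 429 and 520. Of 7 adipocyte markers 1 fell in the single knockout and none was called in the double knockout. No erythroid marker was called. None of the 7 lymphocyte markers was in the table. The libraries with the highest ribosomal protein sums, p38α KO 1 and p38α/γ KO 2, were also the highest of their groups in the macrophage and regenerating fibre sums. The other libraries did not keep that order. Against p38α KO 3, p38α KO 2 had a lower ribosomal protein sum (15386 against 16740) but higher macrophage and regenerating fibre sums. Against p38α/γ KO 3, p38α/γ KO 1 was lower in ribosomal protein sum (15744 against 17758) and regenerating fibre sum, but higher in macrophage sum. The part of these cells in the ribosomal protein values was not tested.

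The first comparison asked what differed in muscle without p38α. A gene was called at a limma adjusted p below 0.05, adjusted over all 13137 genes. Of the 83 genes 5 rose and none fell: Rpl3, Rps12, Rps28, Rpl32 and Rpl36a. Over all genes tested 17.8% were called, 7.32% higher and 10.4% lower, so the share of 6.02% called higher here was near the background. At an unadjusted p below 0.05 limma took 33 of the 83 and 34% of all genes.

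The count called rested on single libraries: it was 0 without control 1 or control 3, 1 without control 2 or p38α/γ KO 3, 3 without p38α/γ KO 2, and 9 without p38α KO 2. Calls over all genes also dropped in these fits, to 6.49% and 6.37% without control 1 or 3, 7.87% without control 2, 13% and 14.8% without p38α/γ KO 3 or 2, and 11.1% without p38α KO 2.

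Most of the 83 lay above the controls. The difference was above 0 for 73 of the 83, against 51% of all genes. In 39 the 3 knockout libraries lay above all 3 controls, against 17.6% of all genes, and Rps27l alone lay below them, against 21.1% of all genes. The median log2 difference was 0.22 for the large subunit, 0.23 for the small subunit and 0.01 for all genes. Without p38α KO 1 the subunit medians were 0.15 and 0.14. By library the median over the 83 was 0.35, 0.08 and 0.21 above the control mean, so p38α KO 2 was close to the controls and p38α KO 1 far from them.

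Rps28 encodes a small protein at the mRNA exit of the small subunit. It measured 77.3, 82.2 and 83.1 in the controls, 146.1, 105.5 and 109.5 in the single and 102.2, 147.4 and 133.6 in the double knockout. Every knockout library lay above every control. The rise was 1.47-fold in the p38α KO (log2 0.55, SE 0.153, limma adjusted p = 0.0357) and 1.56-fold in the p38α/γ KO (log2 0.64, adjusted p = 0.0186). Rps28 lies on chromosome 17, 33819027 to 33824562 (GRCm38).

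Rps12 encodes a small subunit protein of the beak and lies on chromosome 10, 23785183 to 23787275. The control values were 156.3, 166.9 and 179.2, the p38α KO values 280.3, 205.0 and 235.5, and the p38α/γ KO values 207.0, 274.7 and 259.0. Again the groups did not overlap with the controls. The log2 difference was 0.51 (SE 0.137, limma adjusted p = 0.033) in the p38α KO and 0.55 (adjusted p = 0.0211) in the p38α/γ KO. The p38α KO calls of Rps12 and Rps28 were lost without any 1 control, without p38α/γ KO 3, and without p38α KO 1 (log2 0.39 and 0.41).

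Rpl36a encodes a large subunit protein near the E site, where spent tRNA leaves (chromosome X, 134585654 to 134588062). The controls were tight, at 38.8, 38.3 and 37.4. The p38α KO gave 62.7, 45.8 and 46.9, and the p38α/γ KO 52.7, 60.4 and 55.9. The rise was 1.33-fold (log2 0.41, SE 0.119, limma adjusted p = 0.0408) and 1.461-fold (log2 0.55, adjusted p = 0.0138). Its p38α KO call was lost without any 1 control or p38α/γ KO library. The 3 genes Rps28, Rps12 and Rpl36a, were called higher in both knockouts, which share the same controls.

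Rpl32, a large subunit gene on chromosome 6 (115805505 to 115808747), was called in the p38α KO alone, with a small difference. It measured 143.7, 135.5 and 143.1 in the controls, 173.7, 160.6 and 174.3 in the single and 150.8, 165.0 and 159.4 in the double knockout. The knockout values lay above the controls in both cases. The log2 difference was 0.27 (SE 0.076, limma adjusted p = 0.0401) in the p38α KO and 0.17 (adjusted p = 0.125) in the p38α/γ KO. Its p38α KO call was lost without any 1 control, without library 2 or 3 of the p38α KO, or without library 2 or 3 of the p38α/γ KO.

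Rpl3 was called in the p38α KO, and its paralogue Rpl3l was not. Rpl3 and Rpl3l are alternative versions of a protein close to the peptidyl transferase centre. Rpl3 (chromosome 15, 80077791 to 80091868) measured 50.5, 66.2 and 52.3 in the controls, 102.6, 78.8 and 82.9 in the single and 42.0, 62.4 and 48.8 in the double knockout. All p38α KO libraries were above all others, and the p38α/γ KO overlapped the controls. The rise in the p38α KO was 1.56-fold (log2 0.64, SE 0.163, limma adjusted p = 0.027), and it lost the call without control 1 or control 3. In the p38α/γ KO the log2 difference was −0.15 (adjusted p = 0.52).

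Rpl3l (chromosome 17, 24727820 to 24736143) gave 485, 455 and 448 in the controls, 388, 446 and 479 in the single and 408, 394 and 439 in the double knockout. The p38α KO overlapped the controls, and the log2 differences were −0.08 and −0.16 (limma adjusted p = 0.576 and 0.236). The ratio of Rpl3l to Rpl3 values was thus lower in each p38α KO library. It was 9.60, 6.87 and 8.57 in the controls, 3.78, 5.65 and 5.78 in the single and 9.720, 6.316 and 9.002 in the double knockout. Per kilobase of mRNA, Rpl3l made up 89.0% ± 1.70 of the summed level of the pair in controls, 82.9% ± 3.52 without p38α and 88.8% ± 2.37 without both kinases (SD, n = 3). The lowest ratio was that of p38α KO 1, the library with the highest regenerating fibre and macrophage markers, whose part in it was not tested. Between the knockouts the direct difference, higher in the p38α KO, was not called (log2 0.78, adjusted p = 0.0854). Without p38α KO 1 that difference was called (log2 0.67, adjusted p = 0.0262).

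The other paralogue pairs moved less. Rpl22 measured 120.8 to 121.8 in the controls, 121.1 to 132.4 in the single and 125.1 to 140.0 in the double knockout, and its paralogue Rpl22l1 47.8 to 57.2, 53.8 to 75.4 and 43.8 to 60.0. Rps27 measured 188 to 199, 212 to 227 and 192 to 230, and Rps27l 56.3 to 58.2, 48.8 to 55.0 and 48.8 to 53.0. Rpl7 measured 285 to 289, 269 to 306 and 290.2 to 311.4, and Rpl7l1 28.2 to 30.8, 25.4 to 35.5 and 31.5 to 32.6. None of these 6 genes was called in any comparison. The ratio of Rps27l to Rps27 was 0.309, 0.297 and 0.287 in the controls, 0.242, 0.230 and 0.248 in the single and 0.276, 0.242 and 0.212 in the double knockout, without overlap between the controls and either knockout. The plot of paralogue pairs shows that the standard gene was the higher of the pair in every case except Rpl3.

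**Figure D2:**
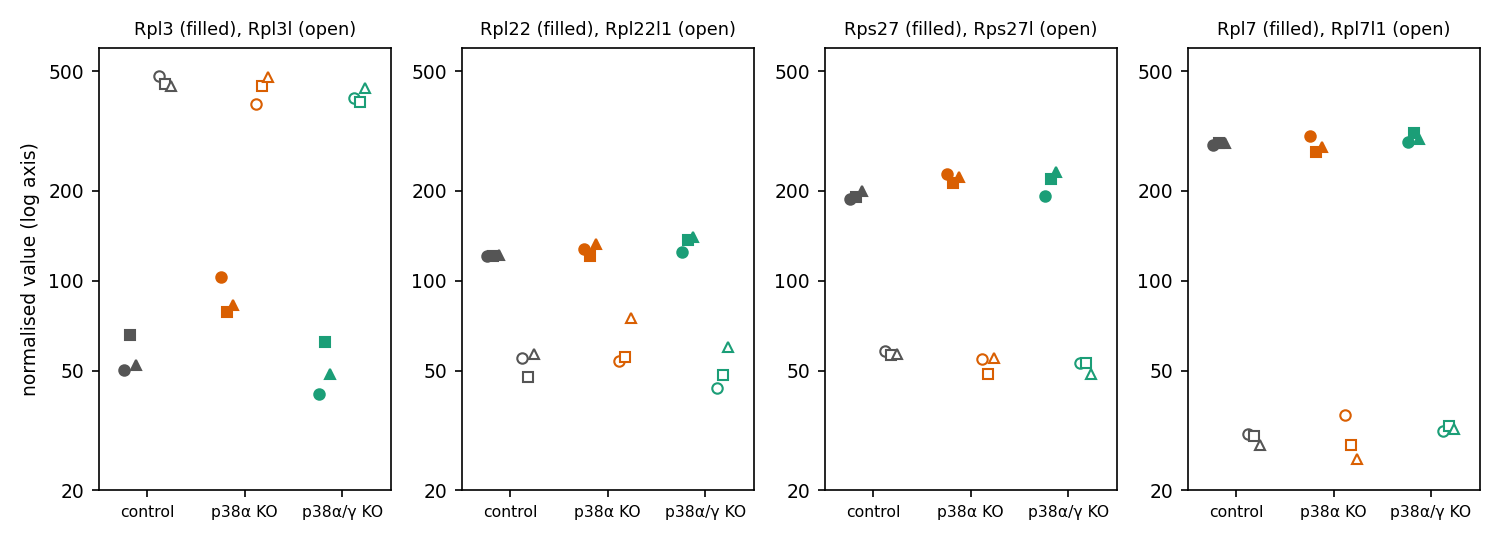
Normalised values (log axis) of 4 standard genes (filled) and their paralogues (open) in each of the 9 libraries; point shape gives the library number and colour the group. Rpl3 lies between 78.8 and 102.6 in the p38α KO and between 42.0 and 66.2 elsewhere, while Rpl3l lies between 388 and 485 in all libraries.

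The second comparison set muscle without both kinases against the controls. Of the 83 genes 25 rose and 1 fell, with 15 of the 50 large subunit genes and 10 of the 33 small subunit genes among those that rose. Over all genes 25.6% were called, 11.2% higher and 14.4% lower. At an unadjusted p below 0.05 limma took 44 of the 83 and 41% of all genes, and the difference was above 0 for 72 of the 83, against 51.5% of all genes. The share called higher was 30.1% of the 83, 30% of the large and 30.3% of the small subunit. In 54 genes the knockout libraries lay above all controls, against 26.4% of all genes, and in 7 below them, against 28.6%. The median log2 difference was 0.20 for the large subunit, 0.27 for the small subunit and 0.02 for all genes, and by library the median over the 83 was 0.11, 0.31 and 0.27 above the control mean.

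The number called depended on single libraries more than the direction did. Without p38α/γ KO 2, or without p38α/γ KO 3, none of the 83 was called, against 6.54% and 7.76% of all genes. Without any 1 control 2 were called, against 8.43% to 12.5% of all genes. Rplp1 lost its call only in the former cases (highest adjusted p = 0.0525), while Rps28, Rps12, Rpl28, Rpl27, Rpl37a, Rpl38, Rpl41, Rps9 and Rps14 also lost theirs without any 1 control. Without p38α KO 1, which enters through the shared estimate of the spread, 43 rose and 1 fell, while 19.4% of all genes rose and 21.6% fell. With the library number as a block 5 rose (Rplp1, Rpl36a, Rps28, Rps12 and Rpl28), or 6.02% against 7.83% of all genes. With the block in the 6 libraries alone 46 rose and 1 fell, against 20.5% and 22.4% of all genes. In the block over 9 libraries the limma adjusted p was 0.0523 for Rpl27, 0.0551 for Rps9, 0.0569 for Rpl37a, 0.0564 for Rpl38, 0.0596 for Rpl41, 0.075 for Rps14 and 0.0909 for Rplp2. The medians stayed between 0.18 and 0.25 for the large and between 0.22 and 0.36 for the small subunit when any 1 library was left out.

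The scaling mattered in both comparisons. When the summed value of the other genes was set equal in all libraries, the median of all genes moved up, to 0.19 in the single and 0.20 in the double knockout. The medians of the large and small subunit then stood at 0.43 and 0.44 in the single and at 0.42 and 0.49 in the double knockout, again above the median of all genes. Under that scaling 56 and 62 of the 83 were called, all higher (67.5% and 74.7%, against 19.6% and 26.2% of all genes), and over all genes the calls went from 962 higher and 1370 lower to 2573 and 615 in the p38α KO, and from 1476 and 1892 to 3437 and 814 in the p38α/γ KO.

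**Figure D3:**
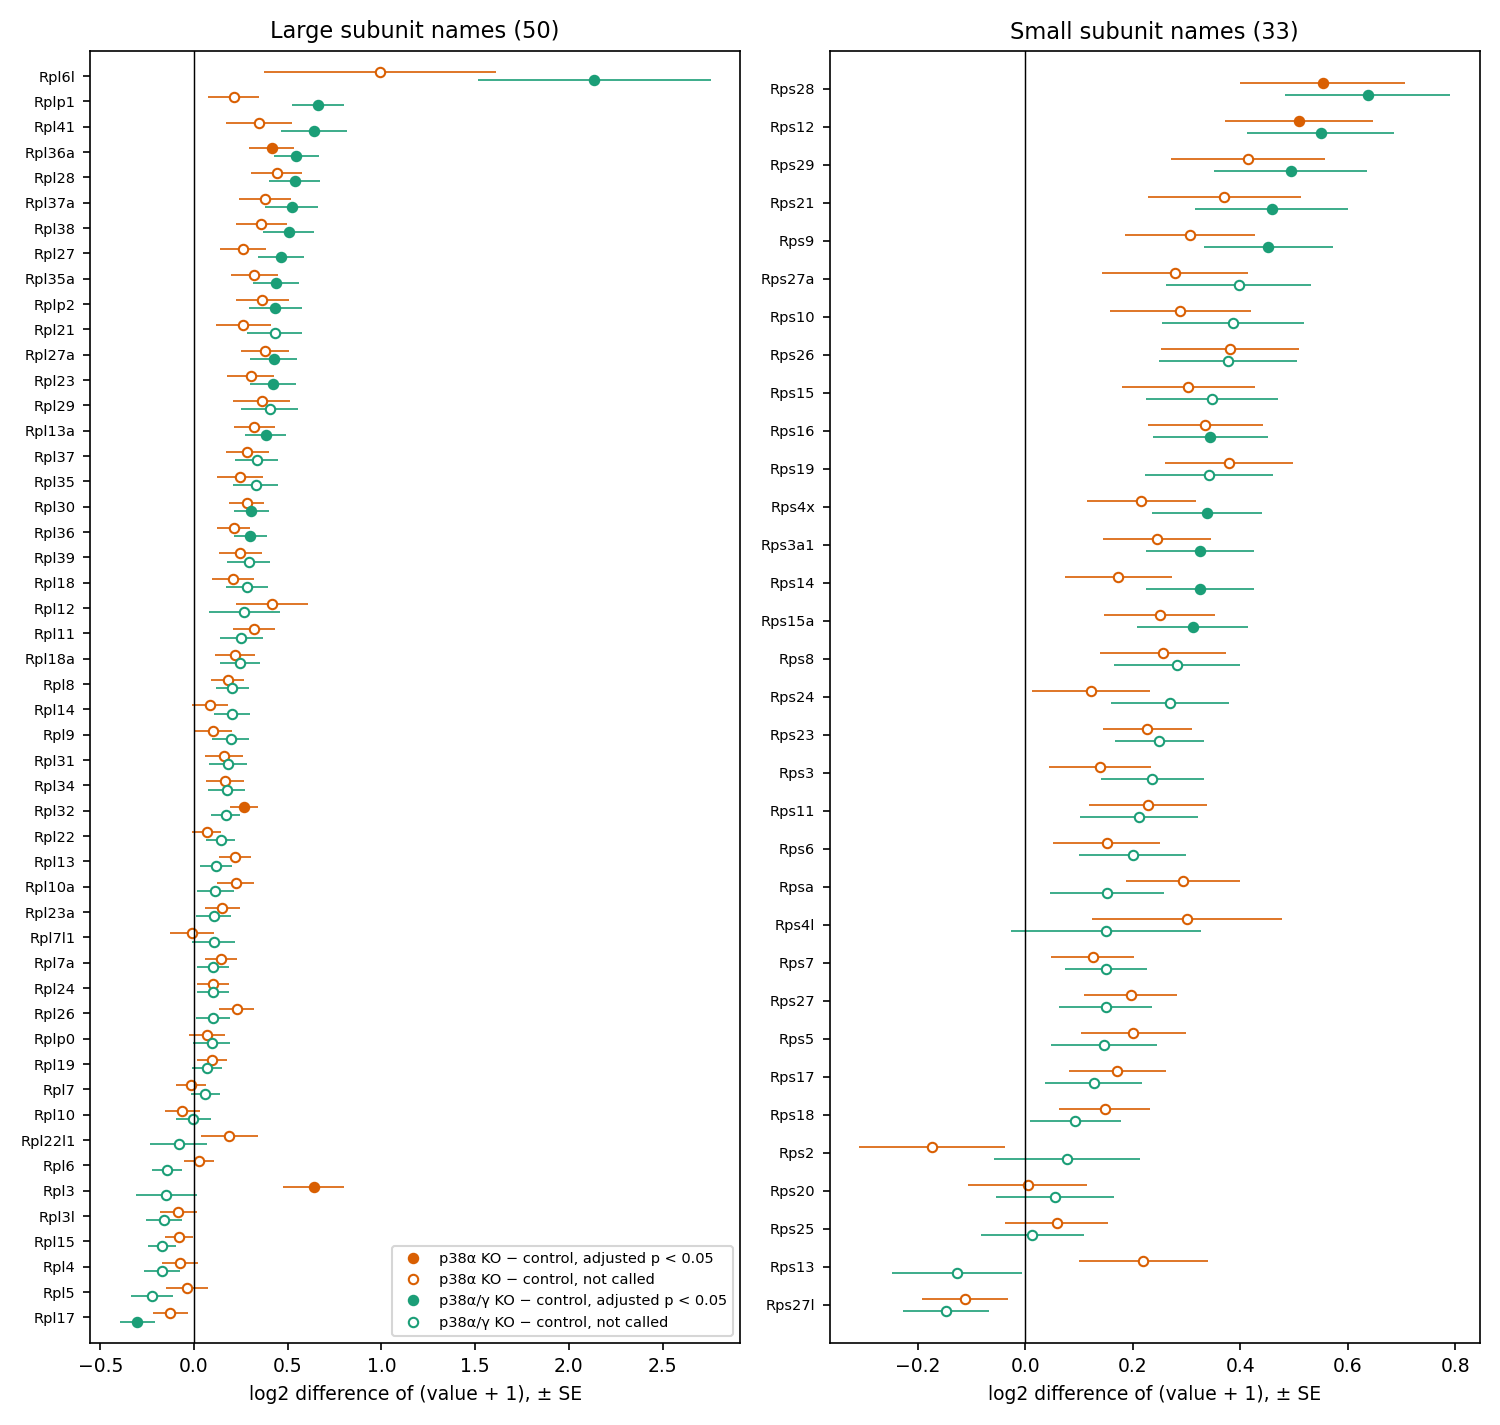
Log2 difference of value + 1 between each knockout and the controls for all 50 large subunit names (left) and 33 small subunit names (right; the horizontal scales differ), with bars for the SE from limma; filled points have an adjusted p below 0.05. Most points lie right of 0 in both knockouts, and Rpl3 is the member with a called rise in the p38α KO and a negative value in the p38α/γ KO.

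The stalk of the large subunit recruits the elongation factors, and its proteins did not move alike. Rplp1 (chromosome 9, 61913284 to 61914542), an acidic stalk protein, measured 326.9, 322.5 and 365.7 in the controls, 468.0, 352.6 and 363.3 in the single and 456.0, 554.1 and 605.7 in the double knockout. All double knockout libraries lay above the controls, and the p38α KO overlapped them. The rise in the p38α/γ KO was 1.58-fold (log2 0.66, SE 0.138, limma adjusted p = 0.0117), the lowest p of the 83. In the p38α KO the log2 difference was 0.21 (adjusted p = 0.303). The direct difference between the knockouts was −0.45 (adjusted p = 0.237), and −0.58 without p38α KO 1 (adjusted p = 0.0158).

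Rplp2, the partner of Rplp1, rose in the p38α/γ KO with a p just below the threshold. Its values were 166.1, 160.3 and 176.6 in the controls, 257.0, 189.1 and 207.0 in the single and 188.2, 261.3 and 236.3 in the double knockout. Both knockouts lay above the controls. The log2 difference was 0.36 (limma adjusted p = 0.102) and 0.43 (adjusted p = 0.0485), and the latter call was lost without any 1 control, p38α KO 2, or library 2 or 3 of the p38α/γ KO. Rplp0, the scaffold that holds both, had the highest mean value of the 83, 646, and measured 598 to 638 in the controls, 612 to 733 in the single and 623 to 702 in the double knockout. Its log2 differences of 0.07 and 0.09 did not pass the test (adjusted p = 0.655 and 0.492). Rpl12, at the base of the stalk, had log2 differences of 0.42 and 0.27 that did not pass (adjusted p = 0.155 and 0.309) and the widest spread within the controls of the 81 protein coding members, a coefficient of variation of 19.3%. Per kilobase of exon Rplp1 had the highest level of the 83, 849 as the mean of 9 libraries, both with all exons and with the longest transcript as the length.

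Of the other large subunit genes with the lowest p, Rpl28 (chromosome 7, 4792874 to 4795066) measured 157.7, 155.1 and 169.6 in the controls, 263.7, 191.1 and 207.2 in the single and 198.0, 259.3 and 248.2 in the double knockout. Both knockouts lay above the controls. The log2 difference was 0.44 (limma adjusted p = 0.0518) and 0.54 (SE 0.137, adjusted p = 0.0226). Rpl27 (chromosome 11, 101442298 to 101445529) measured 75.4, 74.6 and 79.0, then 107.8, 79.2 and 89.7, then 92.3, 113.8 and 112.2. Here p38α KO 2 was level with control 3, and the p38α/γ KO lay clear of the controls (log2 0.46, adjusted p = 0.0248).

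Several of the smallest ribosomal proteins rose in the p38α/γ KO. Rpl41, a peptide at the interface of the subunits and the shortest coding sequence of the 81 (138 bases; chromosome 10, 128548114 to 128549305), measured 134.1, 134.7 and 144.4 in the controls, 229.4, 145.4 and 161.1 in the single and 173.9, 253.8 and 225.4 in the double knockout. The lowest p38α KO library was level with the highest control. The rise in the p38α/γ KO was 1.56-fold (log2 0.64, SE 0.177, limma adjusted p = 0.0289), and the p38α KO did not pass (log2 0.35, adjusted p = 0.197). Rpl37a (chromosome 1, 72711290 to 72713813), a zinc-binding protein, measured 136.0, 132.1 and 142.3, then 211.3, 158.9 and 168.1, then 161.1, 223.9 and 210.9. Rpl38 (chromosome 11, 114668524 to 114672331), a protein known for its part in translating Hox mRNAs in the embryo, measured 75.8, 73.6 and 78.7, then 118.0, 85.5 and 92.3, then 91.1, 118.4 and 117.6. Both lay above the controls in each knockout, with log2 differences of 0.52 and 0.50 in the p38α/γ KO (adjusted p = 0.0267 and 0.027) and of 0.38 and 0.36 in the p38α KO (adjusted p = 0.0894 and 0.0964).

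**Figure D4:**
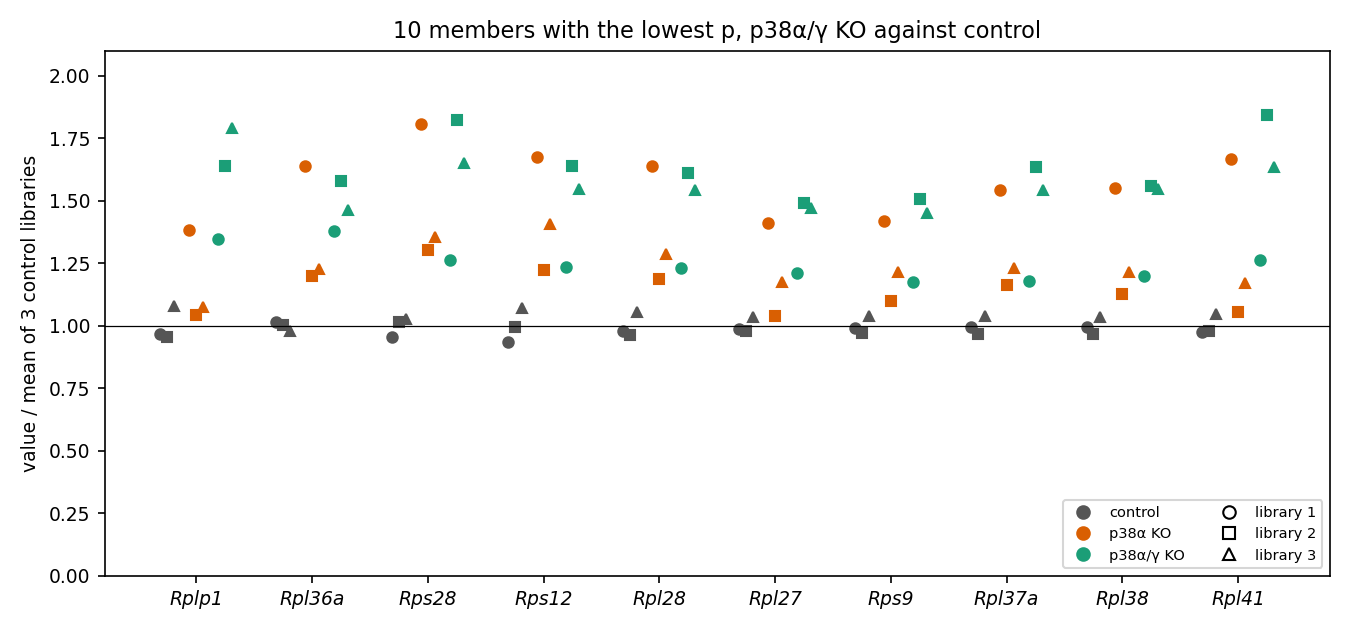
Values of the 10 ribosomal protein genes with the lowest p in the p38α/γ KO, divided by the mean of the 3 control libraries, for each of the 9 libraries (colour gives the group, shape the library number). For 9 of the 10 genes library 2 is the highest of the p38α/γ KO, and Rplp1 is highest in library 3.

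In the small subunit, Rps9 (chromosome 7, 3703993 to 3706897), a protein of the mRNA entry region, measured 240.3, 235.9 and 252.0 in the controls, 344.0, 266.8 and 295.1 in the single and 285.1, 365.4 and 352.3 in the double knockout. Each knockout value exceeded each control. The log2 difference was 0.31 in the p38α KO (limma adjusted p = 0.105) and 0.45 in the p38α/γ KO (SE 0.121, adjusted p = 0.0257). Of the 5 genes on the list for the mRNA exit and the messenger channel, Rps28 and Rps14 rose in the p38α/γ KO. There 30.1% of the 83 and 11.2% of all genes were called higher. Rps14 measured 238.4 to 252.1 in the controls and 281.4 to 325.0 in the p38α/γ KO (log2 0.32, adjusted p = 0.0401). The list for mRNA entry and decoding does not hold Rps9. None of its 5 measured genes was called, against 25.6% of all genes in the p38α/γ KO and 17.8% in the p38α KO. Their median log2 difference was 0.24 in the p38α/γ KO and 0.15 in the p38α KO. Lists of 5 genes are too short to compare with these shares.

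Rps13 and Rps2 gave different signs in the knockouts without passing the test in either. Rps13 measured 161.0, 162.9 and 174.5 in the controls, 233.5, 170.9 and 181.6 in the single and 152.8, 139.3 and 164.7 in the double knockout. The p38α KO libraries lay above those of the p38α/γ KO (log2 0.35, limma adjusted p = 0.287). Rps2, which encodes a protein of the mRNA entry channel, measured 86.5, 81.1 and 87.2, then 96.2, 70.5 and 62.5, then 88.0, 89.6 and 91.1. Without p38α KO 1 it was called lower in the p38α KO, both against the controls (log2 −0.35) and against the p38α/γ KO (log2 −0.43, adjusted p = 0.0115).

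A few large subunit genes went down or stayed level. Rpl17, at the tunnel exit, was the called fall in the p38α/γ KO. It measured 106.6, 114.1 and 119.2 in the controls, 93.4, 103.4 and 115.0 in the single and 96.9, 90.3 and 87.8 in the double knockout. All double knockout libraries lay below the controls (log2 −0.30, SE 0.094, limma adjusted p = 0.0423). The call was lost when any 1 control, any 1 p38α/γ KO library or p38α KO 2 was left out, or with the library number as a block over all 9 libraries (adjusted p = 0.0732). With the summed value of the other genes set equal the difference was −0.09 and was not called. Rpl17 was called on a list of 6 genes around the tunnel exit, of which none rose. Over all genes 11.2% were called higher and 14.4% lower in the p38α/γ KO, and 6 genes are too few to compare with these shares.

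Rpl5 carries the 5S RNA into the large subunit together with Rpl11. Rpl5 measured 84.0 to 94.4 in the controls, 77.0 to 98.3 in the single and 68.5 to 83.8 in the double knockout. Rpl11 measured 115.5 to 128.1, 128.2 to 169 and 132.7 to 152.7. Neither was called, with log2 differences of −0.22 and 0.25 in the p38α/γ KO (limma adjusted p = 0.155 and 0.123). Rpl4, which lines the exit tunnel and had the next highest mean value after Rplp0, measured 587 to 611, 518 to 646 and 524 to 543. Its double knockout libraries lay below the controls without a call (log2 −0.17, adjusted p = 0.202).

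The short and the long members differed in the size of their difference. Across the 81 protein coding members the log2 difference fell with coding length, with a Spearman rho of −0.41 in the single and −0.51 in the double knockout. Genes are not independent replicates, and all points share the same 9 libraries. Over the other 12118 protein coding genes rho was −0.18 and −0.24, so shorter coding sequences went with higher values in general. These numbers describe the fit and were not tested.

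By length class, 6 of 9 members with a coding sequence under 300 bases rose in the p38α/γ KO, against 24.5% of 229 other genes of that class. The 9 are Rpl37, Rpl37a, Rpl38, Rpl39, Rpl41, Rps21, Rps27, Rps28 and Rps29. Rpl37, Rpl39 and Rps27 were not called in either knockout; Rpl39, the next shortest after Rpl41, had log2 differences of 0.25 and 0.29, and Rps27 of 0.20 and 0.15. From 300 bases to below 450 bases 13 of 28 rose, against 20% of other genes. From 450 to below 600 bases 2 of 19 rose and 1 fell, and at 600 bases or more 3 of 25 rose, against 14.2% and 9.71%. The members' medians were 0.49, 0.31, 0.25 and 0.11, and those of the other genes 0.23, 0.16, 0.11 and −0.02. In the p38α KO 1 of 9, 3 of 28, 0 of 19 and 1 of 25 members rose, against 11.4%, 8.69%, 7.65% and 6.85% of other genes. The members' medians there were 0.36, 0.25, 0.22 and 0.15, and the others' 0.15, 0.10, 0.04 and −0.01. The members' medians thus lay above those of the other genes in each class of both comparisons. The shares called higher did not do so in every class. The last class has no upper limit, while the longest member has 1257 coding bases. Members and other genes are therefore not matched in length there.

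The subunits parted among the long genes. At 600 bases or more the 16 large subunit genes had medians of 0.05 in the single and 0.08 in the double knockout, and the 9 small subunit genes 0.22 and 0.24. In this class the large subunit genes run to 1257 bases and the small subunit genes to 906. The 16 also include the paralogues Rpl3l and Rpl7l1. The part of length and of the paralogues in this gap was not tested. Under 300 bases the medians were 0.35 and 0.50 for 5 large, and 0.39 and 0.48 for 4 small subunit genes. By library, the 9 shortest members had medians of 0.62, 0.17 and 0.28 above the control mean in the single and 0.22, 0.65 and 0.62 in the double knockout, and each of the 9 lay above its control mean in all 6 knockout libraries. The 25 longest had 0.25, 0.00 and 0.15, then 0.04, 0.16 and 0.15.

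**Figure D5:**
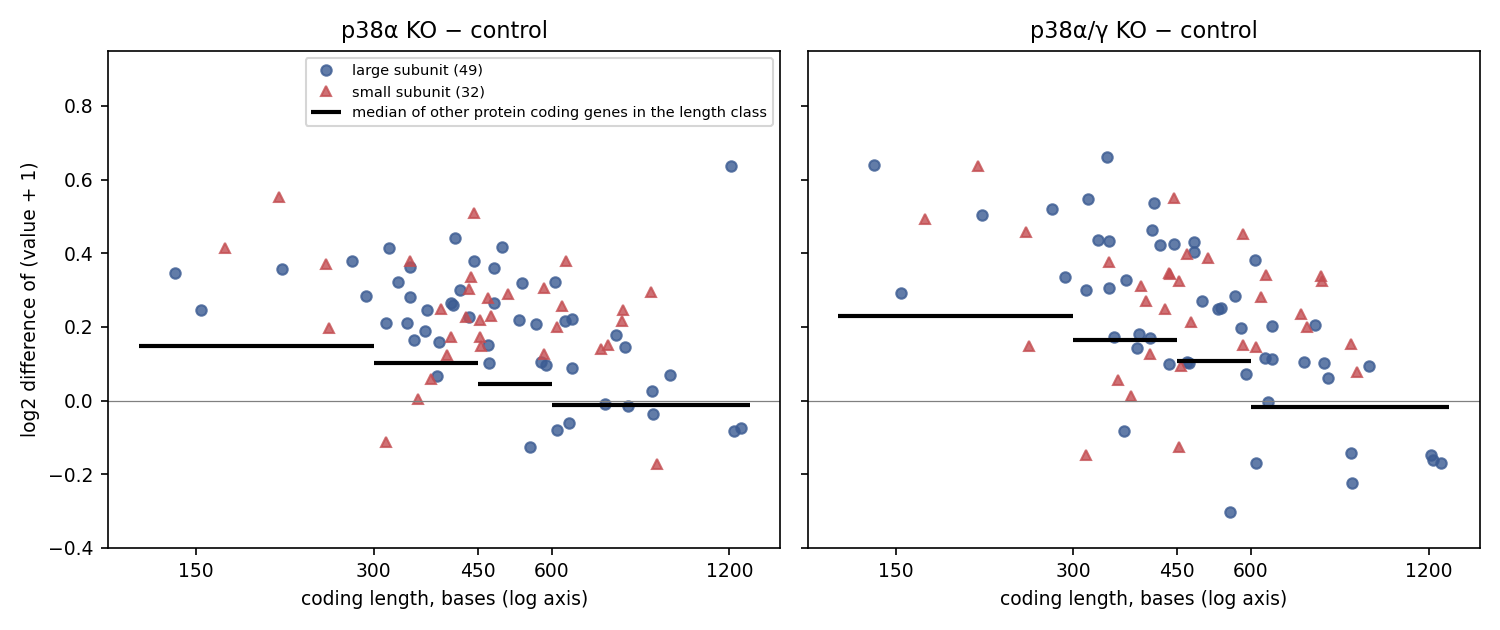
Log2 difference of value + 1 against coding length (log axis) for the 49 large and 32 small subunit protein coding members, p38α KO (left) and p38α/γ KO (right) against the controls; black lines give the median of the other protein coding genes in each length class. The members' differences fall from short to long coding sequences in both panels, with rho of −0.41 and −0.51, and Rpl3 is the point at 0.64 among the long genes on the left.

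The direct comparison of the knockouts called none of the 83 genes with limma, and 0.442% of all genes (0.122% higher and 0.32% lower in the p38α KO). At an unadjusted p below 0.05 there were 3, Rpl3, Rplp1 and Rps13, against 12% of all genes. In 3 genes (Rpl3, Rpl6 and Rps13) the p38α KO libraries lay above those of the p38α/γ KO, against 6.73% of all genes, and in none below, against 7.58%. The median log2 difference was −0.04 for each subunit. Without p38α KO 1 there were 5 calls: Rpl3 was higher, and Rpl36a, Rpl41, Rplp1 and Rps2 were lower, in the p38α KO. In that fit 14.2% of all genes were called, more than the 6.02% of the 83. A list of 22 genes called higher in the p38α/γ KO only and 2 in the p38α KO only is therefore not a list of differences between the knockouts.

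The pseudogene copies need care, because reads of 51 bases cannot always be assigned between a gene and its near-identical copies. Rpl6l (chromosome 10, 111125851 to 111126721) had the largest fold of the 83 in both knockouts. It measured 3.06, 0.494 and 6.65 in the controls, 16.2, 4.19 and 3.11 in the single and 12.4, 20.2 and 12.8 in the double knockout. The p38α/γ KO lay above the controls (log2 2.14, SE 0.62, limma adjusted p = 0.034) and the p38α KO overlapped them (log2 0.99, adjusted p = 0.284). Without control 2, whose value was the lowest, the log2 difference in the p38α/γ KO was 1.503, and the call was lost. It was also lost without control 1, without any 1 p38α/γ KO library, and with the block over 9 libraries (adjusted p = 0.052). The parent gene Rpl6 measured 243.7 to 251.2 in the controls, 234.6 to 274.6 in the single and 217.1 to 229.2 in the double knockout. Rps4l had the lowest mean value of the 83, 2.47, and was not called. A further 14 rows named as pseudogenes of this family, outside the rule, summed to 143 to 160 in the controls, 186 to 255 in the single and 239 to 400 in the double knockout, against 14454 to 18669 for the 83. How such reads were shared out between copies is not given in the sources used here, so values of Rpl6l and of members with many copies are uncertain.

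Genes that act with the ribosomal proteins did not rise with them as a body. Among ribosomal components with names outside the rule, Fau, which encodes a small subunit protein fused to a ubiquitin-like one, rose in the p38α/γ KO (log2 0.42, limma adjusted p = 0.0327). The call was lost with the block over 9 libraries (adjusted p = 0.0672), without any 1 control, and without library 2 or 3 of the p38α/γ KO. Rack1 and Rpl36al were not called.

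Of 17 translation factors and other mRNAs of the pyrimidine tract class, none rose and 2 fell in the p38α KO. Over all genes 7.32% were called higher and 10.4% lower there. The 2 were the histone chaperone Nap1l1 (log2 −0.51, limma adjusted p = 0.00672) and the initiation factor Eif4b (log2 −0.42, adjusted p = 0.0433). In the p38α/γ KO 11.2% of all genes were called higher and 14.4% lower. There the elongation factor Eef1a1 rose (log2 0.58, adjusted p = 0.0421), and Nap1l1 and the initiation factor subunit Eif3e fell. All 3 of these calls were lost with the block over 9 libraries (adjusted p = 0.0662, 0.0639 and 0.0765), and without any 1 control or any 1 p38α/γ KO library; those of Nap1l1 and Eif3e also without p38α KO 2. The p38α KO call of Eif4b was lost without any 1 control, any 1 p38α/γ KO library or p38α KO 2. The median was 0.05 and 0.08. Of 45 ribosome biogenesis factors 2 rose and 1 fell in the p38α KO, and 2 rose and 6 fell in the p38α/γ KO. The 4.44% called higher in each lay under the 7.32% and 11.2% of all genes, and 6 of 45 called lower lay near the 14.4% of all genes. The list as a whole lay lower in the double knockout, with a median log2 difference of −0.16, against 0.02 for all genes. For 22 of the 45 the double knockout lay wholly below the controls, against 28.6% of all genes. For 9 it lay wholly above them, against 26.4%. In the single knockout the median of the 45 was 0.00, with 3 wholly below and 8 wholly above the controls. Nhp2, a protein of the particles that modify ribosomal RNA, rose in both (log2 0.55 and 0.38, adjusted p = 0.00805 and 0.0248), while Ltv1, an assembly factor of the small subunit, fell in both (log2 −0.32 and −0.43, adjusted p = 0.0491 and 0.0151). Polr1a, the catalytic subunit of RNA polymerase I, and Wdr12, a large subunit assembly factor, fell in the p38α/γ KO (log2 −0.46 and −0.39, adjusted p = 0.0166 and 0.017). The p38α KO call of Ltv1 was lost without any 1 library but p38α KO 3, and its p38α/γ KO call without control 1, control 3 or p38α/γ KO 2. In the p38α/γ KO, Nhp2 lost its call without any 1 control or library 2 or 3 of that group, Polr1a without control 1, control 3 or those libraries, and Wdr12 without control 1 or those libraries.

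Of 17 regulators of ribosomal protein mRNA translation, 2 rose and 4 fell in the p38α KO, against 7.32% and 10.4% of all genes. In the p38α/γ KO none rose and 6 fell, against 11.2% and 14.4% of all genes. Larp1, which binds the pyrimidine tract, fell in both (log2 −0.52 and −0.36, limma adjusted p = 0.0104 and 0.0301), as did Rps6kb1, the kinase of ribosomal protein S6 (log2 −0.52 and −0.52, adjusted p = 0.0108 and 0.00947). Mtor, the kinase of mTORC1, and Tsc1, a brake on it, fell in the p38α/γ KO (log2 −0.58 and −0.88, adjusted p = 0.0183 and 0.0131). Myc, a transcription factor known to drive ribosome genes, measured 4.36 ± 0.402 in controls and rose to 9.62 ± 3.50 without p38α (SD, n = 3; log2 0.94, adjusted p = 0.0202); the double knockout gave 5.70 ± 1.19 (adjusted p = 0.313). Larp1 lost its p38α/γ KO call without any 1 control or any 1 p38α/γ KO library, and its p38α KO call without control 3. Rps6kb1 lost its p38α KO call without control 1, and Myc without any 1 control. Without library 2 or 3 of the p38α/γ KO, or without control 1, the calls of Mtor and Tsc1 were lost, and that of Mtor also without control 2. With the summed value of the other genes set equal, calls were lost for Eif4b and Ltv1 in the p38α KO and for Nap1l1, Eif3e, Ltv1, Polr1a, Wdr12 and Larp1 in the p38α/γ KO. None of the 7 chaperones and surplus sensors of ribosomal proteins was called by limma in either knockout. At an unadjusted p below 0.05 there were 2 in the single and 1 in the double knockout, against 34% and 41% of all genes.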

How the data were processed

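Polyadenylated RNA of mouse gastrocnemius was measured in 9 libraries, from 100 ng of RNA with a RIN above 8, as 51-base single reads, per the labels' protocols. CASAVA 1.8, cutadapt, RSEM 1.3.1, limma and GRCm38 are named, without order, in the submitters' processing notes. The authors deposited 1 normalised signal value per gene and library; the rule of the scaling is not given in the sources used here. Depths were inferred from these values.

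Members were read by name from the whole table. A gene entered the test if 3 or more libraries had a value of 1 or higher. limma 3.58.1 (R 4.3.3) was fitted once to log2(value + 1) of all 9 libraries, with an eBayes trend. P-values were adjusted by Benjamini-Hochberg over all 13137 genes within each comparison, and every adjusted p printed is from limma. Fold changes are those of value + 1 and understate changes of low genes. The script was tested on simulated data. Coordinates and lengths came from GENCODE M21 (GRCm38), and start sequences from RefSeq (GRCm38.p6), which matched 61 of 83 members.

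The members and gene lists were chosen with earlier results of these data known. Named in full were members called in the p38α KO or between the knockouts, the 10 with the lowest p in the p38α/γ KO, the 3 highest and 3 lowest differences of each comparison, the highest and lowest level, the paralogue pairs, Mapk14 and Mapk12, and up to 3 called genes of each pathway list. Rpl6, Rpl11, Rpl12, Rack1, Rpl36al and the members of the shortest length class were named after their values were seen. A result on the list of components outside the name rule is not reported here.

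Same-numbered p38α/γ KO and control libraries deviated together (correlations across genes of 0.11, 0.12 and 0.15), a pairing that the labels do not state. Unlike-numbered libraries of these groups correlated at −0.15 to 0.02. Other unlike-numbered libraries reached 0.18 (p38α KO 2 with control 1) and 0.35 (p38α KO 2 with p38α/γ KO 1). Correlations of this size therefore do not establish a pairing. Values with a block on the number are given with the p38α/γ KO calls of named genes that it ends. Alternatives changed the filter, pseudocount, scaling, spread estimate, libraries and block. The block in 6 libraries was added after seeing the data.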

Additional observations from a re-analysis of the deposited data

How the results depend on the processing

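Another filter, pseudocount, trimmed mean or median-of-ratios scaling kept the number of ribosomal protein genes called within 1.5 times the 5 of the p38α KO and the 26 of the p38α/γ KO. Quantile normalisation gave 38 and 48 (45.8% and 57.8%, against 15.3% and 22.8% of all genes), with large subunit medians of 0.36 and 0.30. The summed value of the other genes set equal gave 56 and 62 (67.5% and 74.7%, against 24.3% and 32.4% of all genes). Its medians were 0.43 and 0.42 for the large and 0.44 and 0.49 for the small subunit. Without the eBayes trend 3 and 16 were called (3.61% and 19.3%, against 16.4% and 23.9% of all genes). With the 6 libraries compared 3 and 44 were called (3.61% and 53%, against 10.4% and 42.1% of all genes). Over all genes, those 6 libraries gave 1364 calls for 2332 in the p38α KO, 5536 for 3368 in the p38α/γ KO and 22 for 58 between the knockouts. Leaving out 1 library gave 0 to 9, 0 to 44 and 0 to 5 ribosomal protein genes in the p38α KO, the p38α/γ KO and the direct comparison, and 837 to 3257, 859 to 5388 and 23 to 1872 of all genes. Among the genes named in full by the rule above, no direction of a call reversed. Other called genes were not checked for this. The cause of these changes was not tested.

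With the library number as a block in 9 libraries, 1 ribosomal protein gene was called in the p38α KO, 5 in the p38α/γ KO, and 32 of all genes between the knockouts. With the block in the 6 libraries compared, 0 and 47 ribosomal protein genes were called, and 212, 5637 and 16 of all genes in the 3 comparisons; Mapk12 in the p38α KO was −0.49 without a call (adjusted p = 0.0655). Same-numbered libraries correlated at −0.09, −0.09 and 0.10 between the p38α KO and the controls and at −0.33, −0.23 and 0.09 between the knockouts, so there the numbers do not pair the libraries. Depths were inferred and set no interval here.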
